A study of Mus musculus with 8 samples.

Results

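The genes described are 10 mouse genes whose products crosslink the extracellular matrix of the heart, build it, or regulate cells within it. They are the lysyl oxidases Lox, Loxl1 and Loxl2, the structural proteins Eln and Fn1, and the matricellular proteins Sparc, Postn, Ctgf, Thbs1 and Spp1. Every probe was taken whose RefSeq accession belongs to one of the 10, which gave 15 probes, and a probe of all 10 genes passed the filter on dim spots among 21434 genes and unnamed features tested. RNA was measured in 8 heart samples of male C57BL6 mice on 1-colour arrays, 4 labelled control and 4 labelled dtg (double transgenic). Control mice carried Cre recombinase without the floxed gene, and dtg mice were merCremer/+ IGFloxP/IGFloxP, that is, they carried merCremer, a Cre that tamoxifen activates, and 2 floxed alleles of the receptor for insulin-like growth factor 1. The labels give both groups the same treatment, 500 µg of 4OH-Tamoxifen in peanut oil on 10 days in a row from an age of 8 months, meant to cut out exon 3 of the receptor gene, with the hearts taken 6 weeks later. The sources used here do not name the promoter that drives merCremer, and no animals are said to have been pooled.

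Fibroblasts secrete most of the collagen and elastin of the heart, and lysyl oxidases then oxidise lysine side chains in these proteins so that neighbouring molecules bind covalently, which stiffens the fibres. Matricellular proteins sit in the same matrix but act mainly as signals: they bind integrins, growth factors and collagen. They are often low in resting tissue, and are known to rise after infarction or pressure overload. Expression of these genes is therefore commonly read as a sign of fibrosis, and the study they come from concerns diastolic function, which a stiffer matrix worsens.

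Promoter sequence from RefSeq was at hand for Postn, Spp1 and Sparc, 3 of the 10 genes. These regions are shown because they were the ones at hand. Spp1 was the member that varied most between hearts. Sparc, by its brighter probe, was one of those that varied least, and Postn was the member most like Ctgf. Each window runs from 250 bases before to 50 bases after a transcription start of assembly GRCm38.p6 and is written 5′ to 3′ on the strand of the gene. Capitals mark matches, on either strand, to the TATA box TATAAA, the SMAD motif CAGAC and the RUNX motif TGTGGT. The TEAD motif GGAATG and the AP-1 motif TGANTCA were searched as well and had no match in the 3 windows, and no matches overlapped.
Postn, the second of 2 starts, chr3:54360857-54361156, plus strand: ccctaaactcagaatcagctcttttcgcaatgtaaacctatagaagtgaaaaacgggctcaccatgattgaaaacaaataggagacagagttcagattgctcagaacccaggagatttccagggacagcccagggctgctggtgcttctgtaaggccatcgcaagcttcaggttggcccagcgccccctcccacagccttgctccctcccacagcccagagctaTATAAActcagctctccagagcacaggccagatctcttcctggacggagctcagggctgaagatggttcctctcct
Spp1, the first of 2 starts, chr5:104434861-104435160, plus strand: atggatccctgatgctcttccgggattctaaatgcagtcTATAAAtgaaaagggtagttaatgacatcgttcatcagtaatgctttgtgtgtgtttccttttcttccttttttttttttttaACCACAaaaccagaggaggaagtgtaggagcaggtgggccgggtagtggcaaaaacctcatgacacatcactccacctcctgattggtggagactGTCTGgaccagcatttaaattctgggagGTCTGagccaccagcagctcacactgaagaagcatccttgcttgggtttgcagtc
Sparc, chr11:55420031-55420330, minus strand: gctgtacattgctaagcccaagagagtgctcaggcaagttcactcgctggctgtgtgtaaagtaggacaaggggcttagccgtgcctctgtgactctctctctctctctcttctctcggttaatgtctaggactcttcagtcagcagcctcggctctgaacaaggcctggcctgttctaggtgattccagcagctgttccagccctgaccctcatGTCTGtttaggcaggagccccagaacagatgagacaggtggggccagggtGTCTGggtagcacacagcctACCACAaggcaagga

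With the first transcribed base counted as 0, the TATAAA of Postn begins at -26. The window at the other start of Postn, not shown, has a SMAD match at -191. The Spp1 window holds TATAAA at -211, a RUNX match at -128 and SMAD matches at -33 and -5. At the second start of Spp1, not shown, there is a SMAD match at -41. Sparc has SMAD matches at -35 and 15 and a RUNX match at 35. Of 32851 promoter windows of the same length, 13.6% hold TATAAA, 49.6% CAGAC and 16.8% TGTGGT, and 14.7% and 7.81% hold the TEAD and AP-1 motifs. A match is a description of these letters and does not show that a factor binds there.

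On the arrays, between 59.1% and 71.5% of 39429 probes were well above background, and the 75th percentile of an array ranged from 737.6 to 1027 in intensity. No spot was saturated. Precision is limited by having 4 arrays a group. The arrays lay on 2 slides, with control 1, control 2, dtg 1 and dtg 4 on slide 1 and the others on slide 2. Control 4, dtg 3 and dtg 4 correlated least with their nearest array (highest r across features 0.9836, 0.9843 and 0.9883, against at least 0.9945 for the other 5), so results are also given without them. Values below are log2 signals from which each array's 75th percentile was subtracted. They can be compared between hearts but not between probes. Genes listed as markers of ventricular muscle, which should dominate a heart sample, were all measured (9 of 9). Their summed level was 2868 to 3123 times the 75th percentile in control and 2779 to 3154 times in dtg hearts. How far this list tells ventricular from atrial muscle was not tested. Igf1r was 0.06, 0.10, 0.26 and 0.92 in controls 1 to 4 and -0.41, -0.32, 0.06 and 0.30 in dtg 1 to 4. Its groups overlapped (difference -0.43, SE 0.24, limma adjusted p = 1), and the position of its probe with respect to exon 3 is unknown, so it does not check the genotype labels.

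None of the 10 matrix genes passed the test of a difference between dtg and control hearts. On average 6 were lower in dtg hearts and 4 higher, by 1.23-fold at most, and 0 of 10 passed limma's test at an adjusted p under 0.05, against 0% of all features. At an unadjusted p under 0.05 there were again 0 of 10, beside 0.76% of all features (163), and in 0 of 10 genes did the 4 values of a group lie wholly on one side of the other 4, beside 0.547% of all features. The median log2 difference of the 10, dtg minus control, was -0.044, against 0.021 over all features tested, and the median size of the difference without its sign was 0.095 against 0.079. For 9 of the 10 the difference was smaller than the spread (SD) between hearts of one group, as it was for 92.8% of all features, and for Thbs1 it was larger (0.15 against 0.12). A missed threshold does not show that the groups were alike. The 95% intervals of the differences, which are not adjusted for the 10 genes, reach down to 0.516 times and up to 1.6 times the control level. These intervals hold for the brightest kept probe of each gene and the scaling used here. In that setting they leave out a change of 1.5-fold in either direction for all but 3 genes, Lox, Eln and Spp1. The other Sparc probe had an SE of 0.25 against 0.12, and the other Loxl2 probes 0.39 and 0.17 against 0.23. Median scaling raised the SE of Postn from 0.21 to 0.29 and lowered that of Spp1 from 0.35 to 0.31. A change of 1.5-fold is therefore not left out by every probe and setting. The labels do not say that each sample came from its own animal, so the spread behind these p-values may be in part technical, and they measure no more than that spread.

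**Figure D1:**
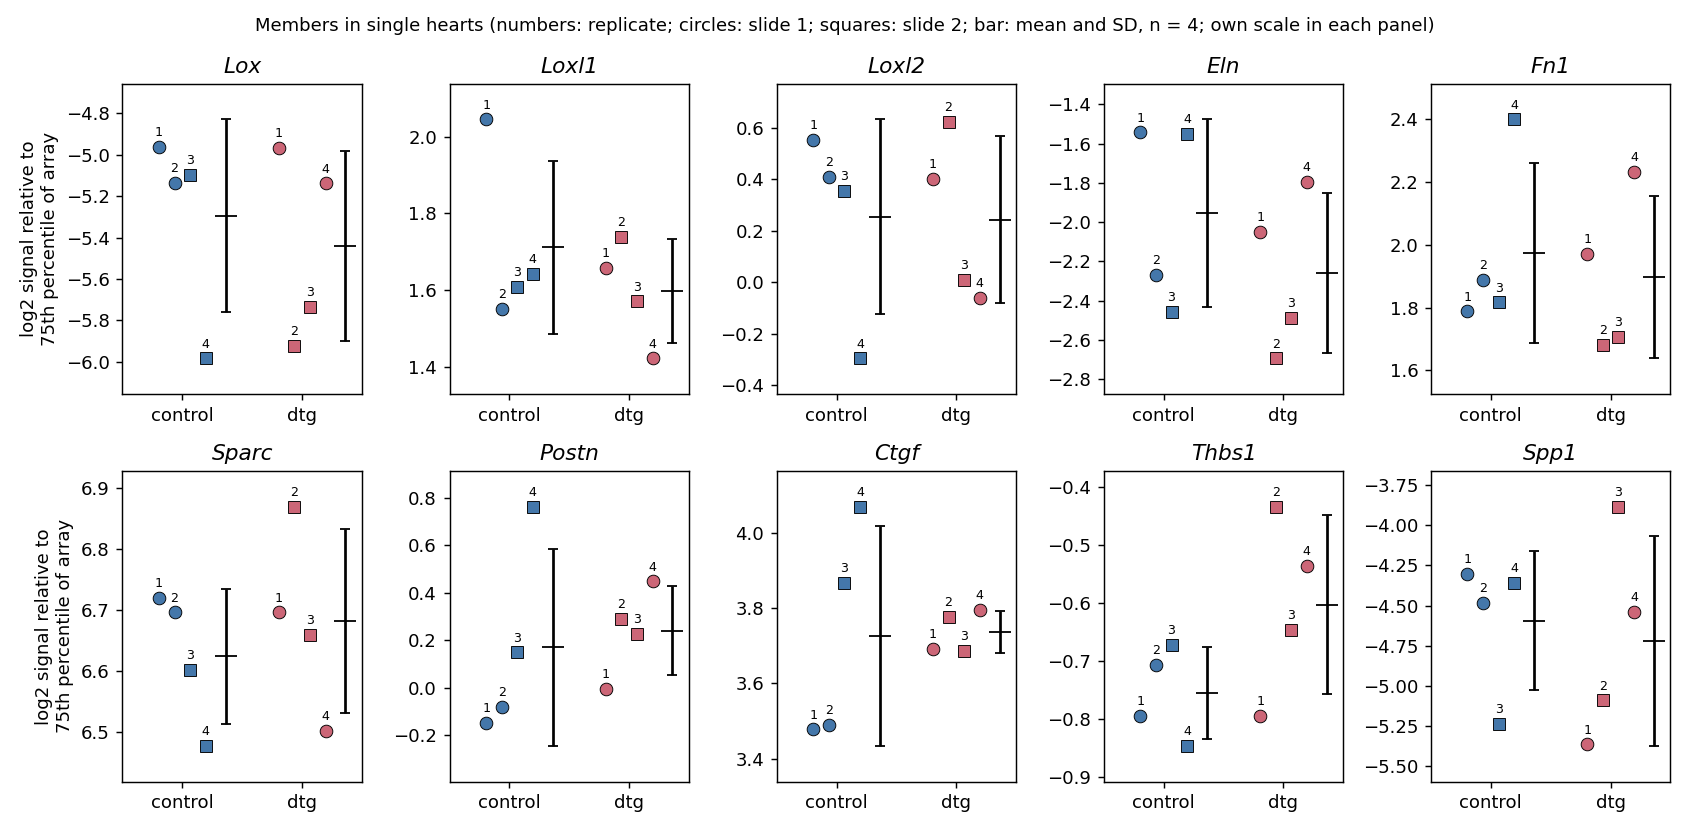
Log2 signal after subtraction of each array's 75th percentile (vertical axis, own scale per panel) of the 10 genes in each control and dtg heart; numbers are replicates, circles slide 1, squares slide 2, and bars the mean and SD of 4 hearts. The groups overlap in every panel.

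Among the crosslinking enzymes, Loxl1, which acts mainly on elastin, was 2.04, 1.55, 1.61 and 1.64 in controls 1 to 4 and 1.66, 1.74, 1.57 and 1.42 in dtg 1 to 4. Control 1 stood above the other 7 hearts, and the rest formed one overlapping band. The means were 1.71 ± 0.23 (SD, n = 4) and 1.60 ± 0.14 (SD, n = 4), a difference of -0.11 (SE 0.14, 95% interval -0.44 to 0.21). Without control 1 the difference was -0.0030. The second probe of Loxl1 placed control 1 only slightly above the others, at 0.09, and dtg 4 lowest, at -0.67, with a difference of -0.16 (SE 0.17).

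Loxl2, which crosslinks collagen of basement membranes and of fibrils, read 0.55, 0.41, 0.36 and -0.30 in controls 1 to 4 and 0.40, 0.62, 0.01 and -0.06 in dtg 1 to 4. Control 4, dtg 4 and dtg 3 were the 3 lowest hearts, so that each group held high and low samples and the group means were nearly equal, 0.26 ± 0.38 and 0.24 ± 0.32 (SD, n = 4 each). The difference of -0.012 (SE 0.23) had an interval from 0.687 to 1.43 times the control level. A second probe of Loxl2 followed the same hearts (r = 0.93 over 8 hearts), with control 4 at -3.55 and dtg 4 at -3.63 below all others. The third did so less (r = 0.38) and was lowest in control 3, at -0.98.

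Lox, the founding member of the family, was close to the detection limit in these hearts. Its 2 probes were well above background on 4 and 3 of the 8 arrays, and only the former entered the test, with well-measured values in control 1, control 2, dtg 1 and dtg 4. These were -4.96, -5.14, -4.97 and -5.14. The other hearts, not well above background, read -5.10 in control 3, -5.98 in control 4, -5.92 in dtg 2 and -5.73 in dtg 3. Both groups thus held high and low hearts. The 2 probes ranked the hearts differently (r = 0.34), and the difference of -0.15 (SE 0.29) rests on values near the background.

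**Figure D2:**
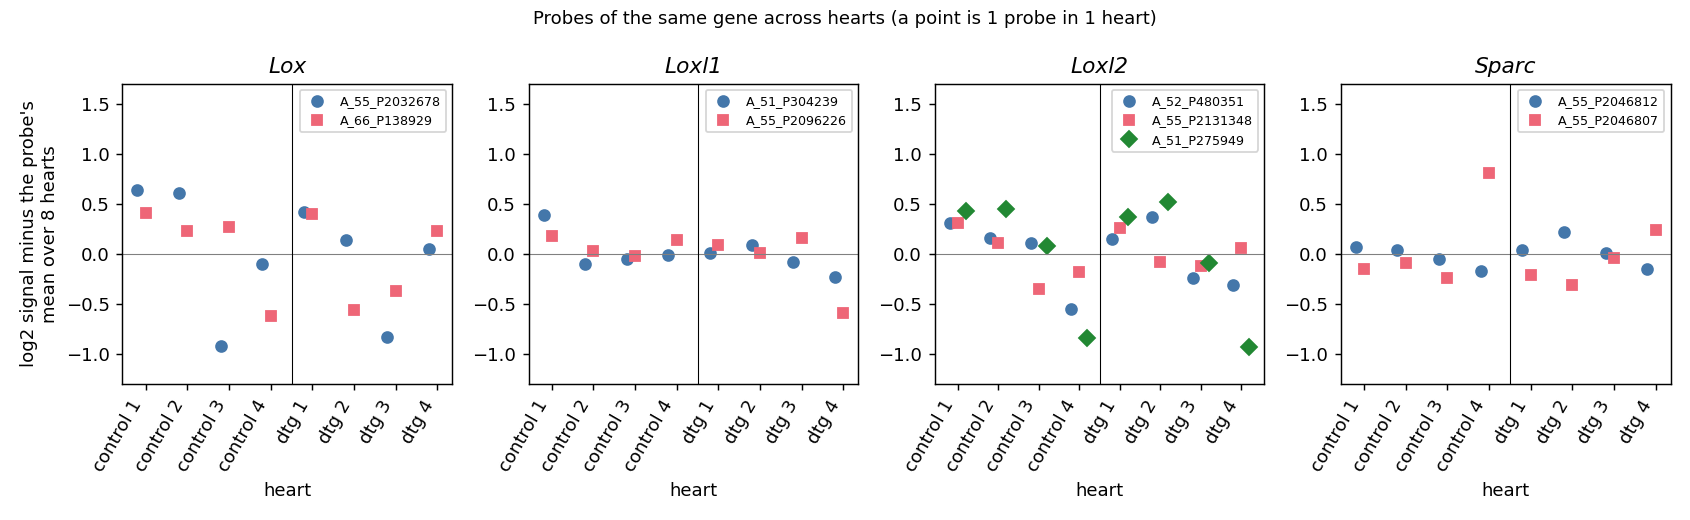
Log2 signal of each probe minus that probe's mean over 8 hearts (vertical axis), by heart (horizontal axis), for the 4 genes with several probes; a point is 1 probe in 1 heart and the vertical line parts control from dtg hearts. The 2 Sparc probes part in control 4, where one was highest and the other lowest of the 8 hearts.

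Elastin (Eln) is the core protein of elastic fibres in arteries and the heart wall. It had the largest difference of the 10 genes under the scaling by the 75th percentile. It read -1.54, -2.27, -2.46 and -1.55 in controls 1 to 4 and -2.05, -2.69, -2.49 and -1.80 in dtg 1 to 4. Controls 1 and 4 were highest and dtg 2 and dtg 3 lowest, but control 2 and control 3 lay among the dtg values. Its means were -1.96 ± 0.48 and -2.26 ± 0.41 (SD, n = 4 each), or 1.23-fold in favour of the controls (log2 difference -0.30, SE 0.28, 95% interval -0.96 to 0.35, adjusted p = 1 with limma). Nearly all of it came from slide 2, with -0.018 within slide 1 and -0.59 within slide 2. Smooth muscle markers, for the cells that make elastin in arteries, were lower on average in dtg hearts for 4 of 6 measured genes, with a summed level of 51.3 to 60.3 in control and 49.4 to 54.9 in dtg hearts in units of the 75th percentile. Their part in the elastin values was not tested, and in whole tissue fewer cells of a type and less RNA per cell cannot be told apart.

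Fibronectin (Fn1), the glycoprotein whose fibrils guide collagen deposition, was 1.79, 1.89, 1.82 and 2.40 in controls 1 to 4 and 1.97, 1.68, 1.71 and 2.23 in dtg 1 to 4. One heart of each group, control 4 and dtg 4, stood above the other 6. The group means of 1.97 ± 0.29 and 1.90 ± 0.26 (SD, n = 4 each) differed by -0.076 (SE 0.19). Within slide 1, which holds dtg 4, the difference was 0.26, and within slide 2, which holds control 4, it was -0.42.

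Sparc, a collagen-binding glycoprotein made by fibroblasts and endothelium, varied little by its brighter probe. That probe read 6.72, 6.70, 6.60 and 6.48 in controls 1 to 4 and 6.70, 6.87, 6.66 and 6.50 in dtg 1 to 4, a range of 1.31-fold over all 8 hearts. The difference was 0.058 (SE 0.12), with an interval from 0.866 to 1.25 times the control level. Control 4 and dtg 4 were the lowest hearts by this probe and the highest by the other, at 2.33 and 1.76 where the remaining 6 lay between 1.21 and 1.48. The 2 probes thus ran against each other across hearts (r = -0.79), and the second gave a difference of -0.16 (SE 0.25).

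Periostin (Postn), a marker of activated fibroblasts, was -0.15, -0.08, 0.15 and 0.76 in controls 1 to 4 and -0.0053, 0.29, 0.23 and 0.45 in dtg 1 to 4. Control 4 was the highest heart, dtg 4 followed, and control 1 and control 2 were lowest, so the dtg hearts lay within the control range. Means of 0.17 ± 0.41 and 0.24 ± 0.19 (SD, n = 4 each) gave a difference of 0.070 (SE 0.21, 0.747 to 1.48 times the control level).

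Ctgf (now named Ccn2), which TGF beta and mechanical load induce, was 3.48, 3.49, 3.87 and 4.07 in controls 1 to 4 and 3.69, 3.78, 3.69 and 3.79 in dtg 1 to 4. The controls split into a pair below and a pair above all dtg hearts, and the 2 lower ones lay on slide 1 and the 2 higher ones on slide 2. The difference was accordingly 0.26 within slide 1, -0.24 within slide 2 and 0.011 (SE 0.15) over all hearts. The dtg hearts spanned only 1.08-fold against 1.51-fold in controls, and this contrast in spread was not tested.

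Thrombospondin 1 (Thbs1), which platelets release and which activates latent TGF beta, had the smallest unadjusted p of these genes in limma's fit, and an adjusted p of 1. It read -0.79, -0.71, -0.67 and -0.85 in controls 1 to 4 and -0.80, -0.43, -0.65 and -0.54 in dtg 1 to 4. The values of 3 of 4 dtg hearts were above every control and dtg 1 was level with the lower ones. The means of -0.76 ± 0.08 and -0.60 ± 0.15 (SD, n = 4 each) differed by 0.15 (SE 0.11), with dtg 1.11-fold above control. Within slides 1 and 2 the differences were 0.085 and 0.22. Platelet markers were also higher on average in dtg hearts for 5 of 6 genes, with a median difference of 0.38 and a summed level of 8.87 to 10.9 in control and 10.5 to 12.7 in dtg hearts. The high median came largely from dtg 3, and without it the median was 0.11, with 4 of 6 higher. None of the platelet genes passed limma's test, and their part in the Thbs1 values, highest in dtg 2, was not tested.

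Osteopontin (Spp1), which macrophages secrete in injured myocardium, was dim and varied most of the 10. It read -4.30, -4.48, -5.23 and -4.36 in controls 1 to 4 and -5.36, -5.09, -3.89 and -4.54 in dtg 1 to 4. The highest and the lowest heart were both dtg hearts, 2.79-fold apart. The difference of -0.12 (SE 0.35) was -0.56 within slide 1 and 0.31 within slide 2. All 8 arrays were well above background for its single probe, at signals between 22.2 and 58.1 intensity units. Macrophage markers differed little, with 4 of 9 measured genes higher and a summed level of 24.6 to 31.0 in control and 25.6 to 28.6 in dtg hearts. The heart with the most Spp1, dtg 3, had the highest summed level of platelet markers, 12.7, and a macrophage level of 26.1.

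**Figure D3:**
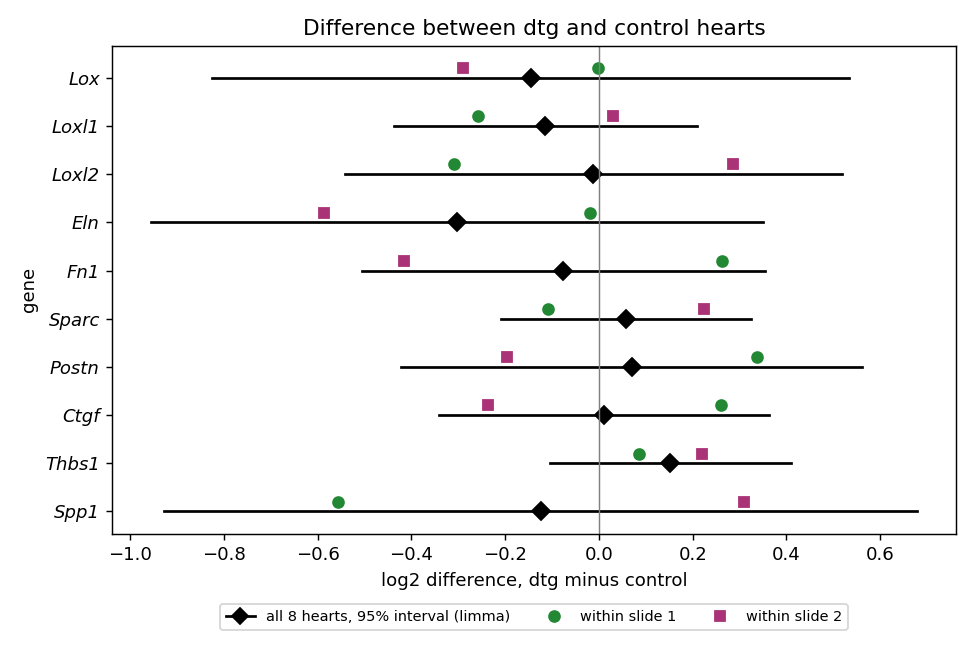
Log2 difference, dtg minus control (horizontal axis), of the 10 genes over all 8 hearts with limma's 95% interval (diamonds and lines), and within slide 1 (circles) and slide 2 (squares). Every interval includes 0, and the within-slide values lie on opposite sides of 0 for 7 of the 10 genes.

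For 7 of the 10 genes the direction within slide 1 was the opposite of that within slide 2, which was so for 66.7% of all features, a share close to that of the members. Only Lox, Eln and Thbs1 kept their direction, and Lox differed by -0.0020 within slide 1. With slide as a block no member passed the adjusted threshold, and without control 4, dtg 3 and dtg 4 none did either.

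The SD between hearts of a group was larger than the difference between the groups for 9 of the 10 genes, all but Thbs1. This was so for 92.8% of all features. Control 4 was the highest or the lowest of the 8 hearts for 7 of the 10 genes, and for 42.2% of all features. It was highest for Fn1, Postn and Ctgf and lowest for Lox, Loxl2, Sparc and Thbs1. Control 1 and dtg 2 were extreme for 5 genes each, beside 31% and 17.5% of all features. That SD was smallest for Thbs1, at 0.12, and the brighter Sparc probe, at 0.13, percentiles 10.8 and 13.4 of all features. It was largest for Eln, Lox and Spp1, at 0.44, 0.46 and 0.55, percentiles 73.3, 74.6 and 80.4. The second Sparc probe had an SD of 0.49 in control and 0.24 in dtg hearts.

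Control 4 and dtg 4, the highest 2 hearts for Fn1 and the lowest 2 for Loxl2 and the brighter Sparc probe, also held the most atrial signal. The summed level of 8 atrial markers was 643.8 in control 4, 496.8 in dtg 4 and 474.1 in control 3, whereas the remaining 5 hearts ranged from 58.1 to 256.9. Control 3 was not an extreme heart for these members, at 1.82 for Fn1, 0.36 for Loxl2 and 6.60 for the brighter Sparc probe. Of the atrial markers 1 was higher and 7 lower on average in dtg hearts (median -0.62, 0 past the test). Markers of the mesothelium, the cell layer that covers the heart, were highest in the same 3 hearts, with 5.48 in control 4, 4.01 in dtg 4 and 4.40 in control 3 against 2.43 to 2.93 in the rest, and all 8 of them were lower on average in dtg hearts (median -0.26, 0 past the test). The summed level of fibroblast markers was lowest in dtg 4 and control 4, at 148.7 and 152.6, and between 163.5 and 214 in the others. Single fibroblast genes did not share that order. Control 4 was the highest heart for 5 of the 10 (Dpt, Lum, Mgp, Col1a1 and Ddr2) and the lowest for 2 (Dcn and Col1a2). Dcn, which has the largest signal in the sum, was at 5.92 in control 4 and 6.03 in dtg 4, its 2 lowest hearts. By the mean log2 signal of the 10 genes, control 4 was instead the highest heart, at 2.57, and dtg 4 was at 2.46. The part of atrial tissue, the epicardial layer or fibroblast number in the member genes was not tested.

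**Figure D4:**
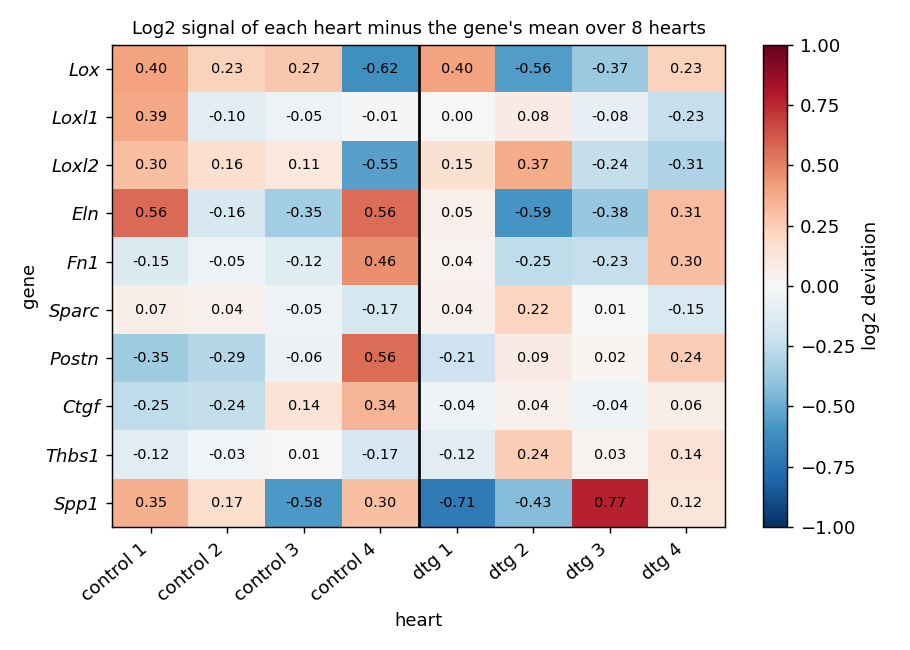
Log2 signal of each heart minus the gene's mean over 8 hearts (colour and printed value) for the 10 genes (rows) in 4 control and 4 dtg hearts (columns). Control 4 holds the highest value of Fn1, Postn and Ctgf and the lowest of Lox, Loxl2, Sparc and Thbs1.

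The genes were also compared with each other across the 8 hearts, in 45 pairs, of which 0 passed an adjusted p of 0.05. By Pearson's r the closest pair was Postn and Ctgf, with r = 0.89 (two-sided exact permutation p = 0.0033, adjusted over 45 pairs 0.098) and Spearman's rho = 0.81 (exact permutation p = 0.022, adjusted 0.33). Without control 1 and control 4, the hearts farthest from the median of Postn, r was 0.67, and it was 0.88 within slide 1 and 0.82 within slide 2 (4 hearts each, no test). An r at least as high with Postn was found for 1073 of 21405 other features, so the likeness is not particular to this pair. Loxl2 and Sparc, the closest pair by Spearman's rho, had r = 0.87 (exact permutation p = 0.0044, adjusted 0.098), rho = 0.95 (exact permutation p = 0.0011, adjusted 0.051) and r = 0.64 without control 4 and dtg 4. This r was 0.99 and 0.86 within slides 1 and 2. An r at least as high with Loxl2 was found for 701 of 21405 other features. Since the brighter Sparc probe and its partner ran in opposite directions, the relation of Loxl2 and Sparc holds for the former alone.

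Fn1 ran against Sparc (r = -0.83, exact permutation p = 0.010, adjusted 0.16, rho = -0.71, exact permutation p = 0.058, adjusted 0.43). This r was -0.40 without control 4 and dtg 4 and was -0.95 and -0.80 within the slides. An r at least as low with Fn1 was found for 1136 of 21405 other features. The relation of Fn1 and Sparc too holds for the brighter Sparc probe alone. The second probe was highest in control 4 and dtg 4, where Fn1 was highest. Between lysyl oxidases no relation passed the test, with r = 0.55 between Loxl1 and Loxl2 and 0.11 between Lox and Loxl1 (adjusted exact permutation p = 0.44 and 0.9).

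Over 8 hearts, the genes whose profile was most like each member, given as a description by Pearson's r among 14293 named genes, held few other matrix genes. Fbln2, the elastic fibre protein fibulin 2, was the nearest to Loxl2 (r = 0.99), and Vtn, the adhesive glycoprotein vitronectin, the nearest to Sparc (r = 0.98). Postn lay nearest to Cdc42bpa (r = 0.99) and Ctgf to Asxl1 (r = 0.99). For Fn1 the nearest were Ap3s2 and Mrps6 (r = 0.98 each), for Eln Tm9sf4 (r = 0.97) and Aldoc (r = 0.96), and for Loxl1 Smurf2 and H2-T23 (r = 0.95 each). Thbs1 lay nearest to Rps25 (r = 0.97), Spp1 to Rn4.5s (r = 0.94) and Lox to Nkx1-2 (r = 0.93). With 8 hearts such values are common: 968 features had an r above 0.9 with Postn, 446 with Loxl2 and 12 with Thbs1.

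In the wider matrix pathway no gene passed the test either. Of 99 related genes in 6 lists, 96 were tested, 46 were higher and 50 lower in dtg hearts, and 0 passed limma's adjusted threshold or an unadjusted p under 0.05. The median difference was -0.0082. For 2 genes, Adamts14 and Aspn, the difference was larger than the SD within groups, and for 1 of 96 (Aspn, 1.04%, beside 0.547% of all features) all dtg hearts lay above all control hearts.

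Fibrillar collagens, the substrate of the lysyl oxidases, had 2 of 6 higher and a median difference of -0.034. The main chains Col1a1, Col1a2 and Col3a1 differed by -0.050 (SE 0.19), -0.018 (SE 0.20) and 0.0069 (SE 0.12). Col1a1 was highest in control 4, at 2.62, as Postn and Ctgf were, whereas Col1a2 was lowest there, at 3.42. The smallest p in this list belonged to Col5a1 at 0.14 (SE 0.14), Col5a3 at -0.11 (SE 0.28) and Col5a2 at -0.075 (SE 0.21), minor chains that set fibril width.

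Other crosslinking and collagen processing enzymes were higher for 7 of 18 genes, with a median of -0.044. The smallest p belonged to the collagen galactosyltransferase Colgalt1 at 0.16 (SE 0.13), the procollagen protease Adamts14 at 0.11 (SE 0.09) and the lysyl hydroxylase Plod3 at -0.092 (SE 0.11). Other matricellular proteins were higher for 9 of 20, with a median of -0.043. Thbs4, a thrombospondin of tendon and stressed muscle, differed by -0.64 (SE 0.43). One heart, dtg 1, was at -1.81 while the others ranged between 0.03 and 0.32, and without dtg 1 the difference was -0.16. The small proteoglycans Aspn and Bgn differed by 0.12 (SE 0.09) and -0.21 (SE 0.17).

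Elastic fibre and fibronectin partners were higher for 11 of 20 genes, with a median of 0.0047. In that list Fbn2, Ltbp2 and Efemp2 (fibulin 4, which brings Lox to elastin) differed by 0.24 (SE 0.23), -0.083 (SE 0.11) and 0.11 (SE 0.16). Matrix receptors were higher for 9 of 19, with a median of -0.0036, among them the integrin chains Itgb1 at -0.17 (SE 0.14), Itga11 at -0.17 (SE 0.15) and Itga4 at 0.12 (SE 0.11). The TGF beta pathway, which induces several of these genes, was higher for 8 of 13, with a median of 0.040. Ski, which restrains SMAD proteins, differed by 0.20 (SE 0.18), the co-receptor Tgfbr3 by 0.11 (SE 0.13) and the ligand Tgfb2 by 0.17 (SE 0.20).

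**Figure D5:**
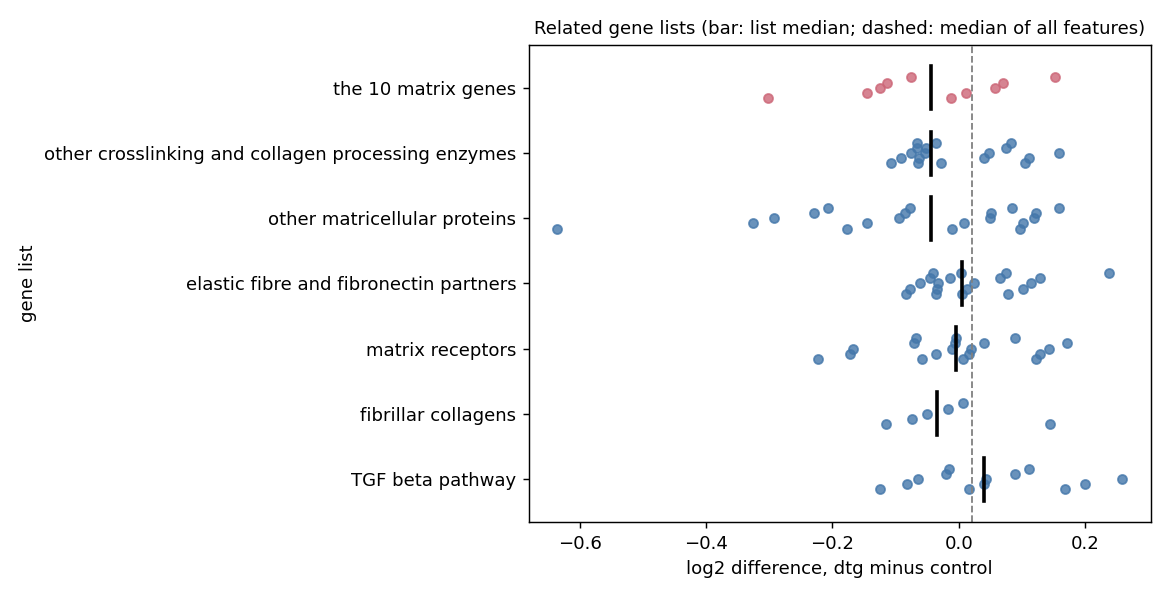
Log2 difference, dtg minus control (horizontal axis), of the 10 matrix genes and of 6 related lists (points, 1 per gene; vertical offsets only part the points), with list medians (bars) and the median of all features, 0.021 (dashed line). All list medians lie between -0.044 and 0.040.

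Among markers of cells that make or remodel matrix, 2 of 10 fibroblast genes were higher in dtg hearts (median -0.045), and 0 of 5 measured myofibroblast genes (median -0.12, with 0 past the adjusted test). The myofibroblast list holds Acta2, the smooth muscle actin that marks activated fibroblasts, at -0.37 (SE 0.11), the only gene of the 2 lists with an unadjusted p under 0.05. Its 4 dtg values lay below all 4 control values, and it failed the adjusted test (adjusted p = 1, limma). Of the 5 myofibroblast genes, 3 (Acta2, Cnn1 and Tagln) are also in the smooth muscle list. The summed level of the myofibroblast list was 24.5 to 28.4 in control and 20.7 to 25.6 in dtg hearts. The fibroblast sum was 152.6 to 206.6 and 148.7 to 214 in the same order. Endothelial markers were higher for 2 of 7 genes (median -0.11), valve and cartilage markers for 2 of 6 (median -0.048), and large artery markers, a list that includes Eln, for 1 of 4 (median -0.16).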

How the data were processed

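Differences in cardiac gene expression were measured on 8 arrays, 1 per sample, from 100 ng of labelled total RNA (Cy3). Groups were taken from the sample titles. Scans had been quantified by Agilent's software (Feature Extraction 10.7.3.1), per the submitters' processing notes, and their annotation names mm9, so RefSeq coordinates are given only for promoter windows. The authors deposited, per the file headers, a processed signal per spot on a linear intensity scale with the local background subtracted, with pixel medians and other marks of spot quality. A second deposited table holds log2 values, which matched quantile normalized log2 signal centred per probe (r at least 0.9998 in each sample). The median of that table was -0.0154 in control 1, -0.0168 in control 2, 0.0323 in control 3 and 0.0178 in control 4, and 0.0051, 0.0069, -0.0322 and -0.0095 in the dtg samples by number. This comparison settled its scale, centring and direction.

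Control and outlier spots were left out, log2 signals averaged per probe, and the 75th percentile of the array subtracted. Of 39429 probes, 26369 matched a symbol by accession in the RefSeq gene table (assembly GRCm38.p6). Probes well above background on at least 4 arrays (26118) were kept, the brightest per gene was used, and 21434 features were tested with limma 3.58.1 in R 4.3.3 (dtg minus control, no covariates, Benjamini-Hochberg over all features, threshold 0.05). The fit was tested on simulated data. Pairs of genes were compared with exact permutation tests.

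The members and lists were chosen with earlier results of these data known. Named are Igf1r, all members, the 3 genes of each related list with the smallest unadjusted p, and the most similar profiles. Col1a1, Col1a2, Col3a1, Acta2, the other single marker genes and the single hearts singled out were chosen after their values were seen. Replicate numbers did not pair the samples (correlations of deviations 0.54, -0.54, 0.15 and 0.16). Slide, background correction, scaling, filter, choice of probes and left-out samples were varied.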

Additional observations from a re-analysis of the deposited data

Results flagged for a closer look

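A heart was taken to stand apart from the other 3 of its group by the gap to its nearest neighbour relative to the group's range. This was so in 8 of 68 sets of 4 values, where chance gives about 1 in 20. The sets reuse the same hearts over related genes and probes, so they are not independent, and no excess can be read from this count. Control 4 accounted for 5 of the 8, and it was the highest or lowest heart for 42.2% of all features. It was high for Fn1, at 2.40 where the next control was at 1.89, and for the second Sparc probe, at 2.33 against 1.43, and low for the dim Lox probe, at -5.98 against -5.14. It was also high for the integrin chain Itga11, at 0.40 against -0.09, and low for Col5a3, at 0.87 against 1.61. Among dtg hearts, dtg 1 was low for Thbs4, at -1.81 against 0.03, and dtg 2 low for Fbn2, at -4.06 against -3.49. Control 1 was the lowest control for Thbs4 by a narrow gap, at 0.18 against 0.30.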

How the results depend on the processing

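No member and no feature passed the adjusted threshold (count 0) under any of the 22 alternatives, a threshold of 0.1 included for all features, and leaving out each sample in turn also gave 0 for both counts. The number of features tested was 32594 without a filter and 18376 with a filter over all 8 arrays, which left 9 members, without Lox. The median difference of the members stayed between -0.11 (median scaling) and 0.043 (control 4, dtg 3 and dtg 4 left out with slide as a block, chosen after seeing the data), below 0 in 18 and above 0 in 4 of 22 alternatives. The spread of the heart medians was 0.10, which the value under median scaling exceeds in size. That value had the sign of the main one, -0.044, and the median of all features was also lower under median scaling. Leaving out a sample moved the members' median between -0.077 and 0.0079. The platelet markers' median without dtg 3 was an alternative added after seeing the data. With the replicate number as a block the median difference of the members was -0.044 and no member was called, so the block changed no call. Of the 4 controls, 2 were most like the dtg heart of the same number. Median scaling placed the median of all features at -0.049, and normexp background correction (offset 50) at -0.067.

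Eln and Thbs1 kept their direction in all alternatives, from -0.59 to -0.018 and from 0.040 to 0.22. Eln did not have the largest difference in all of them. Lox, which is near the background, was at -0.49 with quantile normalization and with the deposited values, where Eln was at -0.31. Over the 10 members 35 of 223 values had the opposite sign to the reported one, and 25 of 421 over the other named genes, none of them called. The cause was not tested. Normexp turned Loxl1 to 0.017, Fn1 to 0.14, Fbn2 to -0.12, Ltbp2 to 0.052, Col5a3 to 0.0011, Itga4 to -0.12, Adamts14 to -0.039, Plod3 to 0.014, Aspn to -0.028 and Ski to -0.074, and the same correction fitted without spots dimmer than their surroundings turned Ctgf to -0.0027. Sparc turned to -0.0011 with quantile normalization, -0.012 with median scaling, -0.053 with the mean of probes, -0.0024 with the deposited values and -0.16 by its second probe. Ctgf turned to -0.058 with median scaling. The third Loxl2 probe gave 0.058, while the second kept the direction, at -0.063. Within slide 1, Fn1 was 0.26, Sparc -0.11, Ltbp2 0.010, Col5a2 0.16, Itga11 0.0071 and Ski -0.14. Within slide 2, Loxl1 was 0.029, Loxl2 0.29, Postn -0.20, Ctgf -0.24, Spp1 0.31, Col5a3 0.39, Itga4 -0.050, Plod3 0.012 and Tgfbr3 -0.085. Without control 4, dtg 3 and dtg 4, Loxl2 was 0.073, Ltbp2 0.045 and Itga11 0.025, and with slide as a block besides, Loxl2 was 0.069, Fn1 0.017, Ltbp2 0.043, Itga11 0.024 and Bgn 0.023. Leaving out single samples gave ranges that crossed 0 for Loxl2 (-0.20 to 0.089), Postn (-0.036 to 0.27), Ctgf (-0.071 to 0.13), Fn1 (-0.19 to 0.066), Spp1 (-0.40 to 0.090), Lox (-0.38 to 0.015), Sparc (-0.0048 to 0.12), Tgfb2 (-0.0014 to 0.28), Col5a2 (-0.25 to 0.039) and Col5a3 (-0.32 to 0.10).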
